A study of Mus musculus with 6 samples.

Results

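The genes of V(D)J recombination and of the end joining that completes it were examined in double-positive (DP) thymocytes with and without Hdac3. Probe sets were chosen by exact gene symbol from a list of 10 genes, and 9 of the 10 had a probe set paired with them alone, out of 19938 genes measured. Dclre1c, which encodes the hairpin-opening nuclease Artemis, had no such probe set and was not analysed here. Each of the other 9 genes had 1 probe set, which stood for the gene. The cells came from untreated C57BL/6 mice, 3 weeks old. The wild-type (WT) group has 3 arrays, and so has the group of the strain that the title calls LCK:Hdac3 KO. HDAC3 is the histone deacetylase of the NCoR/SMRT corepressor complexes. Beyond the prefix LCK in that title, the sources used here give neither the promoter or Cre line behind the deletion nor the deleted part of Hdac3. RNA was pooled from 2 mice of each genotype, and the labels do not make clear whether each array had its own 2 mice or all 3 arrays of a genotype drew on the same 2. In the second case arrays share animals, n = 3 exceeds the number of animals, and the p-values below are too small as a measure of spread between mice.

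RAG1 and RAG2 together form the recombinase that cuts DNA beside the V, D and J segments of antigen receptor genes, and at the DP stage it acts on the T cell receptor alpha locus. The cut ends are repaired by classical non-homologous end joining. In that pathway the Ku70 and Ku80 heterodimer (Xrcc6 and Xrcc5) binds the ends, the kinase DNA-PKcs (Prkdc) is recruited and activates Artemis, terminal transferase (TdT, Dntt) adds nucleotides without a template, and XRCC4 with DNA ligase IV (Lig4), helped by XLF (Nhej1), seals the join.

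A pair of end-joining genes, Xrcc6 and Nhej1, was lower in Hdac3 KO, while the recombinase genes and Dntt had differences of at most 0.12 on the log2 scale that did not pass. Xrcc6 fell by 0.69 on the log2 scale (SE 0.09) to 61.9% of the WT signal, and Nhej1 fell by 0.57 (SE 0.11) to 67.6% of it. These 2 of 9 genes passed the threshold, both lower (limma, adjusted p = 0.004 and 0.018), and 0 of 9 passed as higher. Across all 23410 probe sets tested, 5.79% were called, 4.04% as lower and 1.75% as higher. With dim probe sets left out, 1388 of 11705 were lower and 424 higher, and 2 of the 9 genes were lower. At an unadjusted p under 0.05 the count over the 9 genes was also 2 lower and 0 higher (limma), where 25.2% of all probe sets pass. The median log2 difference (KO minus WT) was -0.07 over the 9 genes and 0.02 over all genes, dim ones included. Among probe sets with signal like that of the 9 genes, the medians were -0.17 to -0.04, so -0.07 is no shift beside them. In bulk RNA, fewer cells of a type and less RNA per cell cannot be told apart.

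The promoters of the lymphoid genes and of the genes that were lower are shown to compare their sequence, as the 250 bases before the annotated start in RefSeq, build GRCm38.p6. Windows were found for 9 of the 10 genes, Lig4 with 2 start sites, and Prkdc is named only. Shown 5′ to 3′ are Rag1 (chr2:101649533-101649782, minus strand), Rag2 (chr2:101624462-101624711, plus strand) and Dntt (chr19:41029025-41029274, plus strand), followed by the called genes Xrcc6 (chr15:82016119-82016368, plus strand) and Nhej1 (chr1:75125227-75125476, minus strand). Capitals mark GC boxes (GGGCGG) and CCAAT boxes (CCAAT) found on either strand, and these matches did not overlap each other.
Rag1: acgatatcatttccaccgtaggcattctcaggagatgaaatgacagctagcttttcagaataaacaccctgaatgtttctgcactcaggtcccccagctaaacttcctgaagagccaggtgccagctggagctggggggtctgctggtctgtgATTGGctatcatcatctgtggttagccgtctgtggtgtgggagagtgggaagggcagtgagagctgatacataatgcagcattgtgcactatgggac
Rag2: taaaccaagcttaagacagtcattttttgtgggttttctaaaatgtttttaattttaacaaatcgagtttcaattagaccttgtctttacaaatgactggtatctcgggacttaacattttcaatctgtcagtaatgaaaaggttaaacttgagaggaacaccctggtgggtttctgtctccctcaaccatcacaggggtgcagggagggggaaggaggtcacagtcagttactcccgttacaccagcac
Dntt: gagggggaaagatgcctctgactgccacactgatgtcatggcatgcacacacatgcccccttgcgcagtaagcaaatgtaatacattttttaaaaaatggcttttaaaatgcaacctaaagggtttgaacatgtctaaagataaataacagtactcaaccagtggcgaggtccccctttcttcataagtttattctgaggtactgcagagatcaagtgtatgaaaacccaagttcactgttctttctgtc
Xrcc6: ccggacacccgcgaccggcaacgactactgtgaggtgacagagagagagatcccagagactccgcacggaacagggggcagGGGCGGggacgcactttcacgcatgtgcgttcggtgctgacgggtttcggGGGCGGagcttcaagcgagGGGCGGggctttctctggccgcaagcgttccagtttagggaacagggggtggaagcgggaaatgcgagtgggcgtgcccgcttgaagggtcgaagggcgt
Nhej1: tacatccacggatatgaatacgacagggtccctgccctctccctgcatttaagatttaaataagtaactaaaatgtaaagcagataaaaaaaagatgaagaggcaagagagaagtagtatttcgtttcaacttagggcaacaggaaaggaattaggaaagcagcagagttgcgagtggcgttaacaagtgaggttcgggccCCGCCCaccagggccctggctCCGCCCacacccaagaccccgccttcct

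The Xrcc6 window held 3 GC boxes and 25 CpG dinucleotides at 65.2% GC, and the Nhej1 window 2 GC boxes and 9 CpG at 48.4% GC. No GC box matched in the Rag1, Rag2 and Dntt windows, which had 3, 3 and 2 CpG at 50.8%, 41.2% and 41.6% GC. The median over 32851 promoter windows was 6 CpG and 52.4% GC. A GC box matched in 32.7% of all windows and a CCAAT box in 33.8%. GC boxes did not set the called genes apart from the other end-joining genes, since the Xrcc4 window held 3 and one of the Lig4 windows 2, with 26 to 28 CpG at 68.0% to 70.0% GC over the Xrcc4 and both Lig4 windows. The Xrcc5 window held 0 GC boxes, 1 CCAAT box and 5 CpG, unlike that of its Ku partner. TGTGGT, the core of RUNX sites, searched on both strands, matched 2 times in the Rag1 window and in none of the other windows, against 14.0% of all windows. The E box CANNTG, also searched on both strands, matched in 9 of 10 windows and in 66.2% of all. These matches describe letters in the windows, and binding was not measured.

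Before the individual genes, the arrays and cells were checked. Hdac3 itself was lower on each KO array, at 46.2% of the WT signal, though its probe set may lie partly outside the deleted part. The spread of signal was smaller in KO, with interquartile ranges of 3.06 to 3.25 on the log2 scale against 3.29 to 3.49 in WT, and differences shifted with signal level, so the median difference of all probe sets in the same one of 10 equal bins by mean value (the signal bin) is given beside each of the 9 genes and each called gene of the related lists and neighbours below. Of all calls, 30.2% were higher in KO, against 9.56% after median centring, a scaling under which the median over all probe sets became -0.08 in place of 0.02. The DP markers measured, 11 of 12, had mean log2 values over 6 arrays of 7.54 (Ptcra) to 12.83 (Cd8a), Cd4 11.23 among them, with list medians of 11.11 to 11.39 in WT and 11.16 to 11.31 in KO. Their summed linear signal was 27300 to 30800 in WT and 28800 to 30300 in KO. Within this list Themis was higher in KO (0.43, SE 0.11, limma adjusted p = 0.047) and 10 did not pass. One of those, Cd24a, differed by -0.54 (SE 0.15, limma adjusted p = 0.064), with every KO array below every WT array. Markers of the B lineage, whose precursors also use RAG and TdT, summed to 390 to 441 in WT and 400 to 429 in KO (9 of 10 measured). The sum of thymic epithelium markers, 8 of 8 measured, was 459 to 556 in WT and 617 to 648 in KO. Within it Cldn3 was higher (0.47, limma adjusted p = 0.046), Epcam was lower (-0.37, limma adjusted p = 0.044) and 6 did not pass. Cldn4, the brightest of the list, was among those 6 (0.48, limma adjusted p = 0.11). Erythroid markers, 4 of 7 measured, summed to 94.7 to 123 in WT and 125 to 142 in KO. Of these Klf1 was higher (0.44, limma adjusted p = 0.047) and 3 did not pass. The sum of 10 of 10 double-negative markers was 670 to 836 in WT and 836 to 1080 in KO. Within it Il2ra, the IL-2 receptor alpha chain, was higher in KO by 2.28 (SE 0.29, limma adjusted p = 0.0033). Cd44 differed by -0.66 (SE 0.09, limma adjusted p = 0.0034) and the other 8 did not pass. The sum includes Il2ra, whose mean log2 value was 5.51 in WT and 7.79 in KO. Single-positive T cell markers, 9 of 10 measured, summed to 1470 to 1670 in WT and 1600 to 1940 in KO. Among them Il7r was lower (-1.19, limma adjusted p = 0.0056), Gimap3 was higher (0.95, limma adjusted p = 0.0056) and 7 did not pass. Macrophage and dendritic cell markers, 10 of 10 measured, summed to 352 to 409 in WT and 393 to 412 in KO. All 10 did not pass (lowest limma adjusted p = 0.068). The 12 of 12 neutrophil markers summed to 774 on KO array 2 and to 257 to 299 on the other arrays. The part of these cell types and of the signal spread in the results was not tested, except where a value without KO array 2 or after another scaling is given.

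Rag1, the catalytic subunit of the recombinase, had log2 values of 13.01, 12.92 and 12.90 in WT and 13.01, 12.99 and 13.03 in KO, in the order of arrays 1 to 3 as below. The groups overlapped, and the KO values lay at or near the highest WT value. The difference was 0.07 (SE 0.09, 95% interval -0.13 to 0.26, limma adjusted p = 0.66), with a median of -0.04 in its signal bin, and it was -0.01 after cyclic loess normalization and -0.03 after median centring, so it has no settled sign. Its signal lay near the top of the measured range, which ended at 13.98, and how linear the array is there was not tested. Rag2, the regulatory subunit whose PHD finger reads methylated histone H3, had values of 10.14, 9.98 and 9.73 in WT and 10.14, 9.94 and 10.13 in KO. WT array 3 was the lowest of the 6 and the groups overlapped. The difference was 0.12 (SE 0.12, 95% interval -0.15 to 0.39, limma adjusted p = 0.57), where the signal bin's median was -0.04. It was 0.02 after median centring, 0.19 after cyclic loess normalization, 0.01 without WT array 3 and 0.21 without WT array 1, so its size is not settled. The interval allows KO levels from 89.9% to 131% of WT for Rag2 and from 91.5% to 120% for Rag1.

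Dntt, the template-independent polymerase TdT, had values of 11.62, 11.64 and 11.45 in WT and 11.47, 11.55 and 11.49 in KO. The KO arrays lay inside the WT range. Its difference was -0.07 (SE 0.09, 95% interval -0.28 to 0.15, limma adjusted p = 0.69), which allows 82.6% to 111% of the WT level, and the median of its signal bin was -0.04. It was -0.17 after median centring and -0.13 to -0.03 with 1 array left out. None of the 3 genes that are restricted to developing lymphocytes therefore passed, and for none did the interval reach a halving or a doubling.

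**Figure D1:**
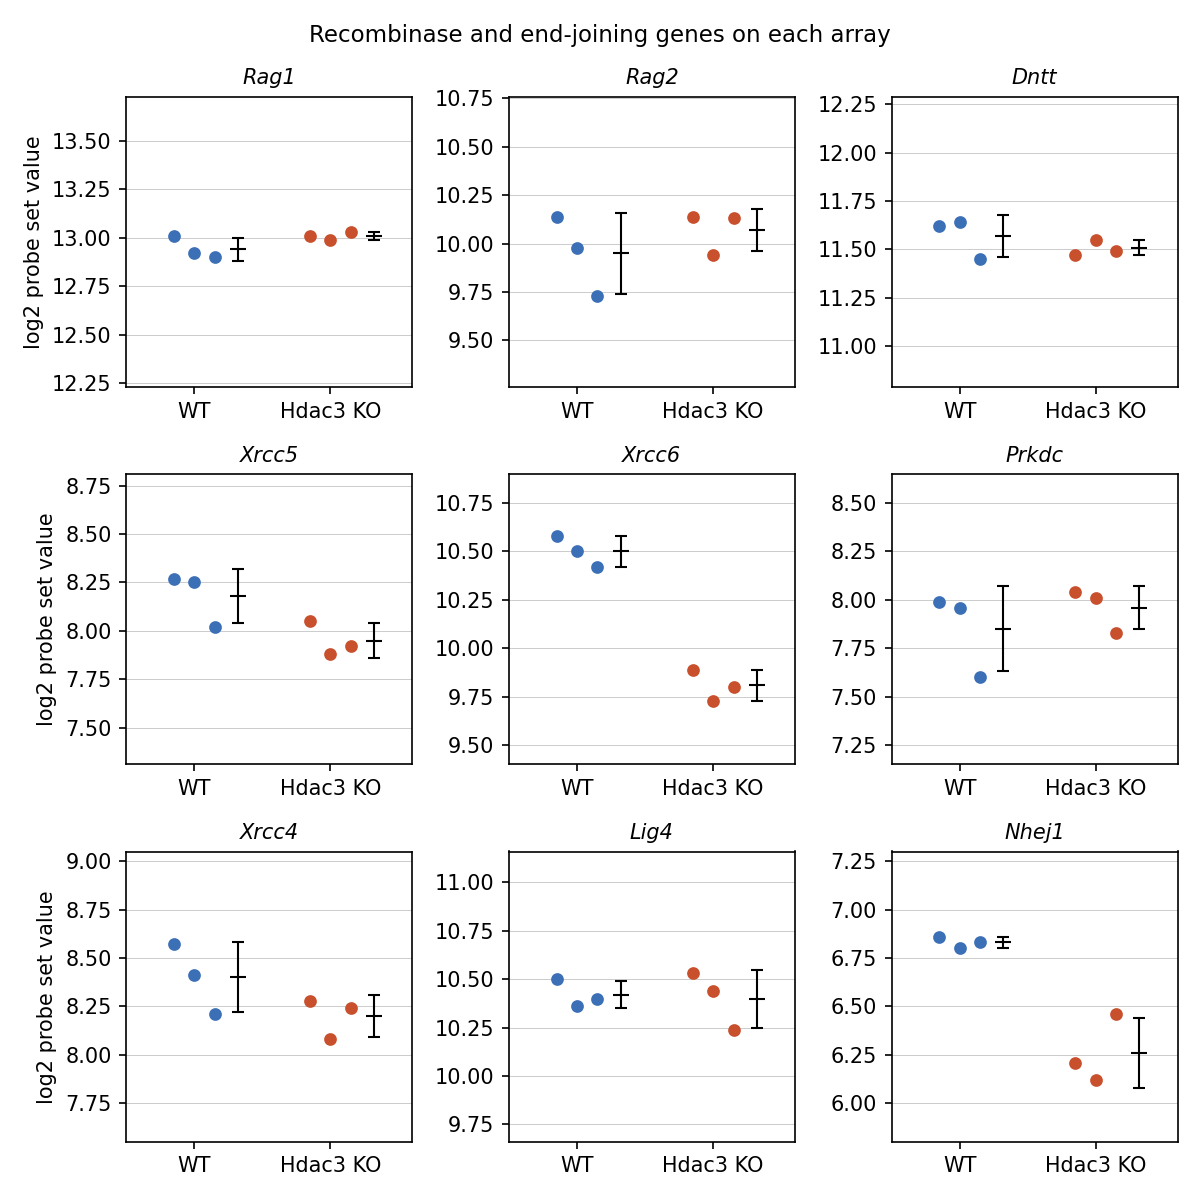
Log2 probe set values (y axis, each panel spanning 1.5 log2 units) of the 9 measured genes on 3 WT arrays (blue) and 3 Hdac3 KO arrays (red), in replicate order, with the mean and SD of each group in black. The groups are separate for Xrcc6 and Nhej1 and overlap for the other 7 genes.

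Xrcc6, the Ku70 subunit of the DNA end-binding heterodimer, had log2 values of 10.58, 10.50 and 10.42 in WT and 9.89, 9.73 and 9.80 in KO. Every KO array lay below every WT array, and the gap between the groups was larger than the range within either. Means were 10.50 ± 0.08 in WT and 9.81 ± 0.08 in KO (SD, n = 3), a difference of -0.69 (SE 0.09, 95% interval -0.90 to -0.48) or 1.62-fold (limma, adjusted p = 0.004). The median in its signal bin was -0.04. The call held in all 14 alternatives tried, with differences of -0.79 to -0.63 (limma adjusted p from 7.3e-05 to 0.024), among them the fit without KO array 2 (-0.65). A KO signal of 61.9% of WT (95% interval 53.6% to 71.6%) is a level of RNA and says nothing of the amount of Ku protein.

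Xrcc5, the Ku80 partner, had values of 8.27, 8.25 and 8.02 in WT and 8.05, 7.88 and 7.92 in KO. The KO values were the lower ones apart from an overlap between KO array 1 and WT array 3. Its difference of -0.23 (SE 0.10, 95% interval -0.46 to 0.00) did not pass (limma, adjusted p = 0.20), and the median of its signal bin was -0.17. It shrank to -0.09 after quantile and -0.10 after cyclic loess normalization. The Ku pair was therefore compared within arrays, a comparison chosen after the values were seen. The log2 ratio of the Xrcc6 to the Xrcc5 probe set was 2.32, 2.25 and 2.40 in WT and 1.84, 1.86 and 1.88 in KO. It was lower on each KO array, by 0.46 on average. This describes the 2 probe sets on these arrays and adds no support beyond the differences of each gene. It is not a ratio of molecules, since levels of different probe sets cannot be set against each other. An exact two-sided permutation test gave p = 0.1, the smallest that 3 against 3 arrays allow (0.1 after adjustment over the 2 pairs compared), so the test cannot pass.

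Prkdc, the catalytic subunit of the DNA-dependent protein kinase, had values of 7.99, 7.96 and 7.60 in WT and 8.04, 8.01 and 7.83 in KO. Apart from a low WT array 3 the values of both groups lay close together. The difference was 0.11 (SE 0.12, 95% interval -0.17 to 0.39, limma adjusted p = 0.60) where the signal bin's median was -0.17. It was -0.01 without WT array 3, so its sign rests on that array. It was 0.25 after quantile and 0.24 after cyclic loess normalization, 0.01 after median centring, and passed in none of the 14 alternatives.

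Among the genes of the ligation step, Xrcc4, the scaffold that holds ligase IV, had values of 8.57, 8.41 and 8.21 in WT and 8.28, 8.08 and 8.24 in KO. The groups overlapped through WT array 3. Its difference of -0.20 (SE 0.11, 95% interval -0.46 to 0.06) did not pass (limma, adjusted p = 0.30) and lay close to the median of its signal bin, -0.13. It shrank to -0.07 after quantile and -0.08 after cyclic loess normalization and was -0.30 after median centring. Lig4, the ligase that seals the break, had values of 10.50, 10.36 and 10.40 in WT and 10.53, 10.44 and 10.24 in KO. KO array 1 was the highest of the 6 and KO array 3 the lowest. The difference was -0.02 (SE 0.10, 95% interval -0.25 to 0.21, limma adjusted p = 0.93), with a median of -0.04 in its signal bin. It was 0.00 after quantile normalization, 0.04 after cyclic loess normalization and -0.12 after median centring, so it too has no settled sign.

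Nhej1, which encodes XLF, a structural relative of XRCC4 that stimulates ligation, had values of 6.86, 6.80 and 6.83 in WT and 6.21, 6.12 and 6.46 in KO. The WT arrays agree closely, and every KO array was lower than each of them, KO array 3 the least. Means were 6.83 ± 0.03 in WT and 6.26 ± 0.18 in KO (SD, n = 3), a difference of -0.57 (SE 0.11, 95% interval -0.81 to -0.33, limma adjusted p = 0.018) or 1.48-fold, where the median of its signal bin was -0.14. The call held in 10 of 14 alternatives, including all 8 that kept the 6 arrays (limma adjusted p from 0.008 to 0.032). It was lost when WT array 1 (-0.55), WT array 2 (-0.58), KO array 1 (-0.54) or KO array 2 (-0.49) was left out, with limma adjusted p of 0.056 to 0.070. Within arrays, the log2 ratio of the Nhej1 to the Xrcc4 probe set was -1.72, -1.61 and -1.38 in WT and -2.08, -1.96 and -1.78 in KO. Each KO value was lower than each WT value, by 0.37 on average (exact two-sided permutation test, p = 0.1, the smallest possible here, and 0.1 after adjustment over the 2 pairs). This pair was also chosen after the values were seen.

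**Figure D2:**
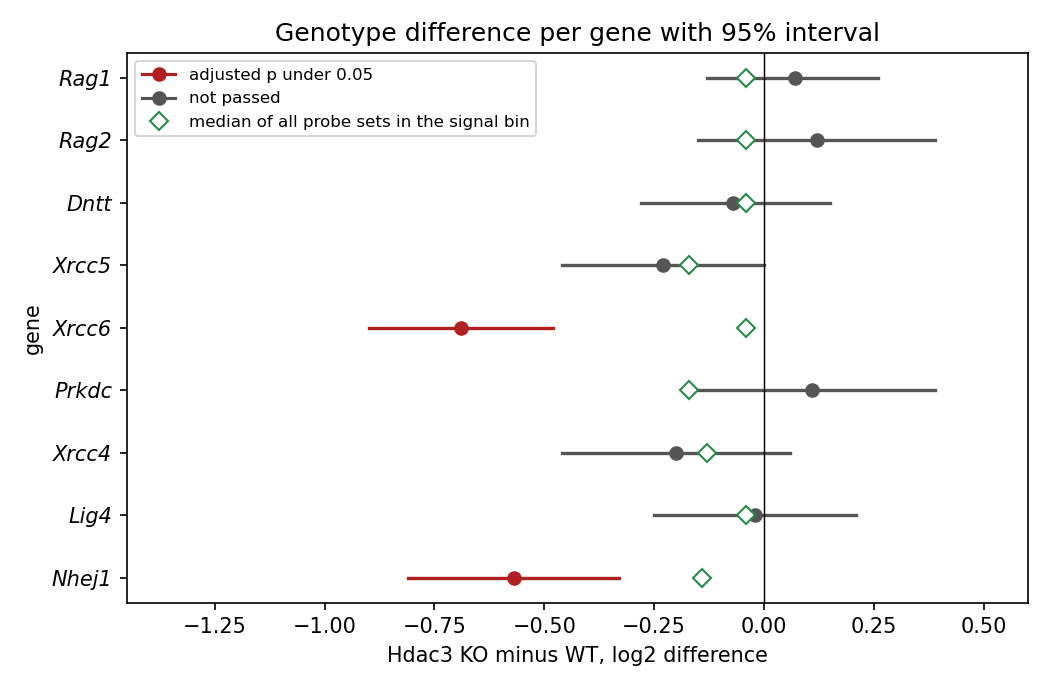
Log2 difference between Hdac3 KO and WT (x axis) of each gene (y axis) with its 95% interval from limma, red where the adjusted p was under 0.05, beside the median difference of all probe sets in the same signal bin (green diamonds). The intervals of Xrcc6 (-0.90 to -0.48) and Nhej1 (-0.81 to -0.33) lie below the medians of their bins, and those of the other 7 genes reach 0.

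**Figure D3:**
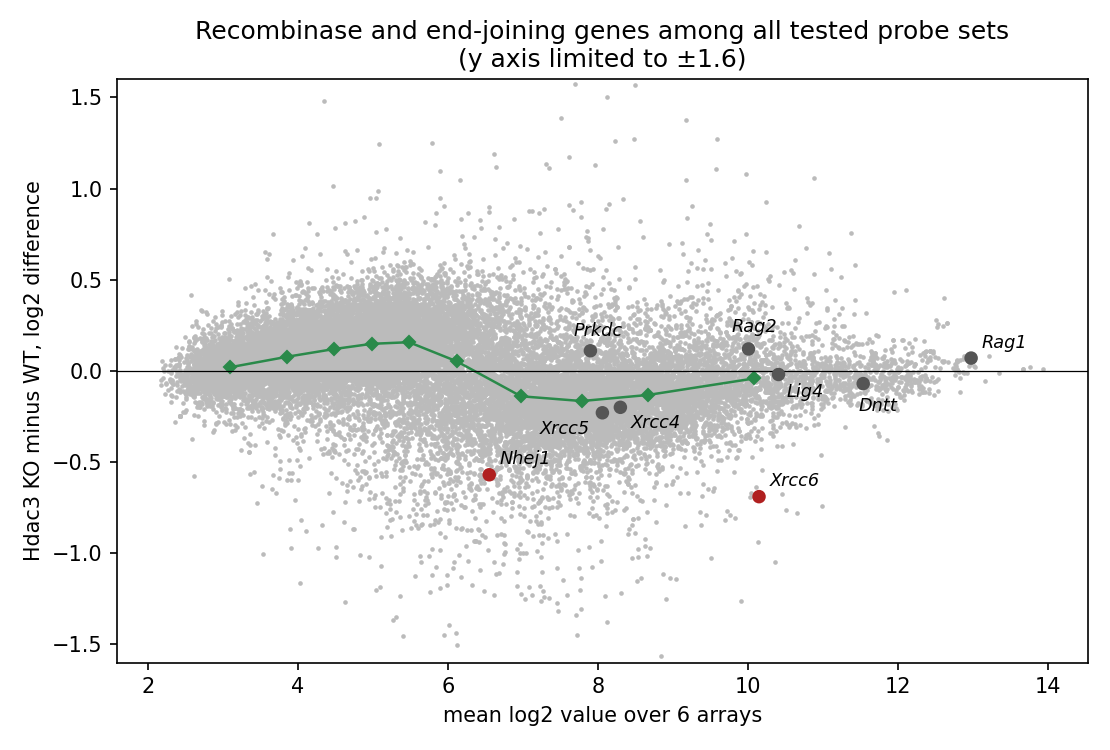
Log2 difference between Hdac3 KO and WT (y axis) against mean log2 value over 6 arrays (x axis) for 23410 probe sets (grey), with the medians of 10 signal bins as a green line and the 9 genes labelled, red where called. Xrcc5 and Xrcc4 lie near the line, Prkdc above it, and Xrcc6 and Nhej1 below it.

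For 2 of the 9 genes all KO arrays lay below all WT arrays, and for 0 above. Over all probe sets the first held for 16.5%, the second for 13.5% and either for 30% of them. Many of the 9 genes had the same order of arrays. WT array 1 was the highest WT array for 8 of the 9 and WT array 3 the lowest for 7. KO array 2 was the lowest KO array for 6. These are also the arrays with the largest and the smallest interquartile range in WT (3.49 and 3.29) and the smallest in KO (3.06), and what the shared order reflects was not tested.

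Genes that work beside the 9 were taken from 5 lists of 50 genes, of which 45 had a probe set of their own. Of these, 4 were lower in KO, 0 were higher and 41 did not pass (limma, adjusted p under 0.05). The lower genes were 8.89% of the 45, against 4.04% of all probe sets, dim ones included. With dim probe sets left out, 1388 of 11705 probe sets were lower, and the lists kept 4 lower genes. That share of brighter probe sets is larger than 4.04% and also larger than the 8.89% of the lists. The lists therefore held no excess of lower genes over brighter probe sets. At an unadjusted p under 0.05, 11 list genes were lower and 2 higher (limma), and these 13 of 45 are a share close to the 25.2% of all probe sets. Their median difference was -0.15, against 0.02 over all genes and -0.04 to -0.17 in the 4 signal bins of highest mean value. The count of lower genes was 2 after quantile or cyclic loess normalization, 2 without WT array 1, and 1 without WT array 2 or any 1 of the KO arrays.

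Of the 8 measured cofactors and turnover factors of RAG, 1 was lower and 7 did not pass. It was Hmgb1, the DNA-bending protein that helps RAG to hold its target sites, with values of 9.95, 9.65 and 9.93 in WT and 9.0, 9.04 and 9.11 in KO. The groups were far apart, with a difference of -0.79 (SE 0.11, limma adjusted p = 0.004) where the signal bin's median was -0.04, and the call held in all 14 alternatives (-0.89 to -0.70, limma adjusted p from 0.00014 to 0.021). The mouse genome holds many processed copies of Hmgb1, so this probe set may also read related sequences. Hmgb2, its close relative, had 4 probe sets, whose differences of -0.16 to -0.12 did not pass (limma, adjusted p of the brightest 0.49).

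Of the 11 measured genes of break sensing and response, 2 were lower and 9 did not pass. H2ax, the histone variant phosphorylated around breaks, had values of 9.88, 10.22 and 10.18 in WT and 9.74, 9.64 and 9.48 in KO, a difference of -0.48 (SE 0.12, limma adjusted p = 0.049) against a bin median of -0.04. Trp53bp1, the 53BP1 adaptor that favours end joining over resection, had values of 8.15, 8.19 and 7.87 in WT and 7.69, 7.60 and 7.60 in KO, a difference of -0.44 (SE 0.11, limma adjusted p = 0.045) against a bin median of -0.17. For both genes the groups were separate and the adjusted p lay close to the threshold. Neither passed after quantile or cyclic loess normalization, H2ax passed in 1 of the 6 fits with an array left out (without WT array 1) and Trp53bp1 in 1 (without WT array 3), with limma adjusted p over all 14 alternatives of 0.010 to 0.15 and 0.017 to 0.14.

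None of the 8 measured accessory end-joining genes passed (limma, 2 at an unadjusted p under 0.05). Poll, the end-joining polymerase lambda, had a difference of 0.31 (SE 0.11, limma adjusted p = 0.12), and Aplf, a scaffold that binds Ku, one of -0.32 (SE 0.13, limma adjusted p = 0.16). None of the 6 measured genes of alternative end joining passed either (limma, 2 at an unadjusted p under 0.05), with differences of -0.29 for the ligase Lig3 and -0.27 for the poly(ADP-ribose) polymerase Parp1 (limma adjusted p = 0.13 and 0.17). All 6 differences of that list were negative, -0.31 to -0.08, at signal levels where the bin medians were negative too.

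Of the 12 measured transcription factors linked to Rag expression, Lef1, the TCF family partner of beta-catenin, was lower and 11 did not pass. Its values were 10.72, 10.86 and 10.82 in WT and 10.45, 10.34 and 10.42 in KO, a difference of -0.40 (SE 0.09, limma adjusted p = 0.036) against a bin median of -0.04. The groups were separate, and the call held in 1 of the 6 fits with an array left out, that without WT array 3 (limma adjusted p over 14 alternatives 0.0023 to 0.12). The list's median difference was -0.10 and its range -0.40 to 0.26.

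**Figure D4:**
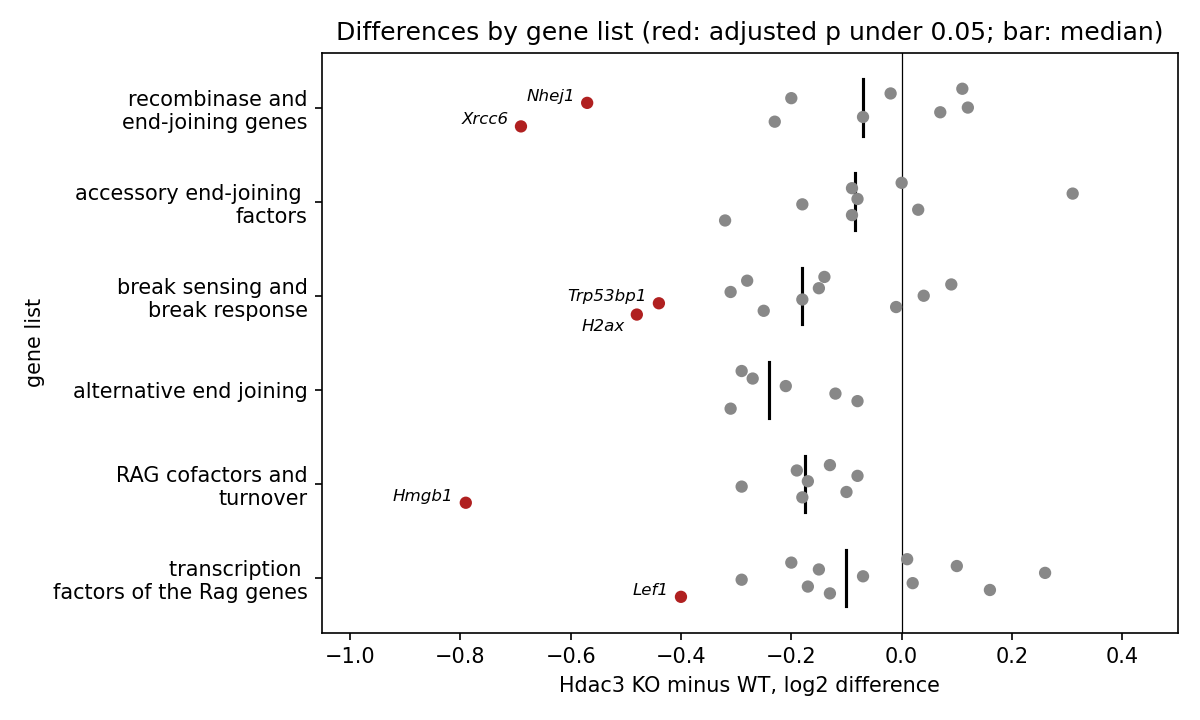
Log2 difference between Hdac3 KO and WT (x axis) of each gene (points) in the recombinase and end-joining set and in 5 related lists (y axis), red and named where the limma adjusted p was under 0.05, with the median of each list as a bar. The 6 named genes all lie below 0, from -0.79 for Hmgb1 to -0.40 for Lef1.

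Rag1 and Rag2 lie next to each other on mouse chromosome 2, and the 4 protein-coding genes on each side in the RefSeq table were read as their neighbours. Ldlrad3, the outermost of the 4 beyond Rag1 and a membrane protein of the LDL receptor class A domain family, had values of 9.19, 9.14 and 9.17 in WT and 8.26, 7.94 and 8.26 in KO. It fell by 1.01 (SE 0.11, limma adjusted p = 0.0016), its groups were far apart, and the median of its signal bin was -0.13. The other 7, Traf6, Prr5l and Commd9 on the same side and Iftap, Lrrc4c, Api5 and Ttc17 on the other, did not pass, with differences of -0.21 to 0.13. Lower calls were thus 12.5% of the 8 neighbours, against 4.04% of all probe sets and 1388 of 11705 with dim ones left out. With so few genes this count does not set the Rag region apart. The genes directly beside the pair, Traf6 and Iftap, differed by 0.13 and -0.20 (limma adjusted p = 0.44 and 0.49).

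**Figure D5:**
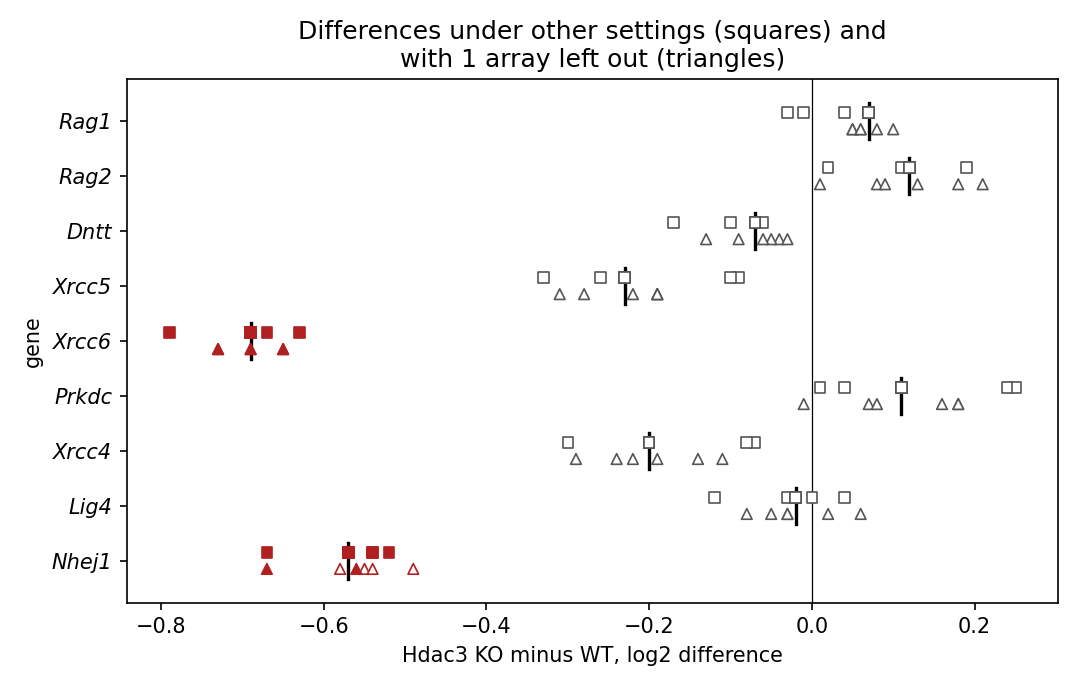
Log2 difference between Hdac3 KO and WT (x axis) of each gene (y axis) as reported (black bar), under 8 other settings (squares) and with each of the 6 arrays left out (triangles), filled where the limma adjusted p was under 0.05. Xrcc6 is filled throughout between -0.79 and -0.63, Nhej1 in 10 of 14, and the other 7 genes in none.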

How the data were processed

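Biotin-labelled sense-strand target was made from total RNA and hybridised to Affymetrix whole-transcript arrays, per the labels' protocols. The deposited values are log2 probe set values by the authors, read as log2 from their range (1.94 to 13.98). The sources used here do not give their background correction, normalization or summarization, and depth has no counterpart on arrays, whose number limits the precision. Probe sets were named through the platform annotation and RefSeq GRCm38.p6 (21789 of 28853 with 1 symbol, 1621 with several, 5443 with none), and the brightest probe set over the 6 arrays stood for a gene. The 23410 probe sets with a gene were tested with limma 3.58.1 (R 4.3.3; lmFit, eBayes, 2 group means, Benjamini-Hochberg, threshold 0.05). Intervals are 95%, and a gene passed at an adjusted p under 0.05. In 10 simulated data sets with 200 of 23410 probe sets changed, 31.4% of changes of 0.5, 86.5% of 1 and 98.3% of 2 on the log2 scale were recovered, and 3.52% of calls were false. The simulated noise was independent between probe sets and arrays, and the real fit called 1355 probe sets. These shares may therefore not carry over to the real arrays.

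The 9 measured members of the list were named in any case. From each related list up to 4 called genes with the largest difference were named, or the 2 with the smallest p. Hdac3 and the neighbours of the Rag genes were named as well. Members and lists were chosen with earlier results of these data known. Genes of the related lists without a measured probe set of their own were not analysed here. Motifs were matched as exact letters. Alternatives were quantile, cyclic loess and median scaling, a filter on dim probe sets, an intensity trend with robust prior, array weights, a replicate block, 1 array left out at a time and probe sets averaged per gene.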

Additional observations from a re-analysis of the deposited data

How the results depend on the processing

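Over 14 alternatives, the count of recombinase and end-joining genes lower in KO was 2 in all 8 settings that kept the 6 arrays and ranged from 1 to 2 with 1 array left out, and 0 were called higher throughout (limma; 0 higher at an unadjusted p under 0.05). The count over the related lists was 4 lower as reported, 2 after quantile and 2 after cyclic loess normalization, 1 with the replicate block, and 1 to 3 with 1 array left out, with 0 higher throughout (2 higher at an unadjusted p under 0.05). Signs that changed were those of Rag1 (-0.01 after cyclic loess normalization, -0.03 after median centring), Lig4 (0.00 after quantile and 0.04 after cyclic loess normalization, -0.08 to 0.06 with 1 array left out) and Prkdc (-0.01 to 0.18 with 1 array left out), none of which was called. The cause of these changes was not tested. Of 265 differences of named genes under alternatives, 232 kept direction and side of the threshold, 26 lost the call and 7 changed sign. Poll could not be tested with dim probe sets left out.

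Replicate numbers are shared between the genotypes in the labels, but deviations from the group means of same-numbered arrays correlated at 0.25, -0.07 and -0.03 across 23410 probe sets, and WT arrays 2 and 3 correlated best with another number, so the numbers were not treated as pairs. With the replicate block, calls over all probe sets went from 1355 to 1162, Xrcc6 (limma adjusted p = 0.0085) and Nhej1 (0.024) stayed lower, and H2ax, Trp53bp1 and Lef1 no longer passed (limma adjusted p = 0.069, 0.052 and 0.061). Detection calls were not used here, so the distance of a probe set from background is unknown. This bears on those of lower signal, Lrrc4c, Prr5l, Poll, Aplf and Nhej1 among them (mean log2 values 2.77, 3.47, 5.20, 6.41 and 6.55). Of these, Aplf and Nhej1 were kept by the filter on dim probe sets.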
